A study of Homo sapiens with 4 samples.

Results

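The E2F transcription factor genes E2F1 to E2F8 and the genes of their dimerisation partners, TFDP1 and TFDP2, were followed in cells treated with dBET1. These 10 genes were taken from a count table of 64252 Ensembl genes by matching each Ensembl ID to its symbol. RNA sequencing had been done on 4 libraries labelled NB4, a cell line from acute promyelocytic leukemia. A pair of libraries came from cells given 8 μM dBET1 for 24 h, and the other pair came from cells given the same volume of the solvent DMSO for 24 h, so n = 2 in each group. dBET1 joins a ligand of BET bromodomains to a ligand of the ubiquitin ligase substrate receptor cereblon, and thereby sends BET proteins to the proteasome. The labels name no further allele, agent or difference between the groups, and they do not say whether replicates were separate cultures, so p-values measure only the spread between these libraries.

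The libraries held 28019956 to 34685645 counts. Mitochondrial genes took 4.67% and 4.91% of the counts under DMSO against 7.81% and 7.38% under dBET1. The number of genes with a count was 25274 and 24589 under DMSO against 28356 and 28353 under dBET1. The defining granule genes of promyelocytes were at or near 0, against the label NB4. ELANE and CTSG, which encode neutrophil elastase and cathepsin G, had 0 counts in all 4 libraries, and the summed counts of 5 granule genes were 17, 15, 55 and 25 (DMSO replicates 1 and 2, then dBET1 replicates 1 and 2). The summed counts of 8 erythroid genes were instead 170878 and 178937 under DMSO, and 94127 and 94045 under dBET1. Of these 8 genes, 8 fell with an edgeR adjusted p under 0.05, as did 27.6% of all genes tested. The counts of 5 lymphoid genes summed to 977 and 952 under DMSO and to 388 and 400 under dBET1, but only 1 of the 3 tested genes of that list, CD3D, fell, and their median log2 fold change was 0.045. The part of these differences in the values below was not tested. Fewer cells of a type and less RNA per cell cannot be told apart in bulk RNA.

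E2F proteins bind DNA beside a DP partner and set the transcription of genes for DNA replication and cell cycle entry. E2F1, E2F2 and E2F3 act mainly as activators that the retinoblastoma protein RB1 holds back until cyclin-dependent kinases phosphorylate it. E2F4 and E2F5 act mainly as repressors with the RB1 relatives RBL1 and RBL2 in resting cells. E2F6 represses without a pocket protein, as a subunit of a Polycomb complex. E2F7 and E2F8 bind without a DP partner and shut down E2F target genes late in S phase. E2F target genes are high in cycling cells.

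The sequences before the start sites are shown first, since E2F genes are known to carry E2F sites of their own and the members moved in different directions. RefSeq windows (GRCh38.p14) of 300 bases, from 250 bases before a start to 50 bases from it on, were matched by symbol for 8 of the 10 genes, in 11 windows. E2F5 and E2F8 were not matched. Each sequence below reads 5′ to 3′ in the direction of the gene, and capitals mark an E2F octamer on either strand, one of TTTCCCGC, TTTGGCGC, TTTCGCGC and TTTGCCGC. The windows are chr20:33686336-33686635 on the minus strand for E2F1, chr1:23531184-23531483 on the minus strand for E2F2, chr6:20401629-20401928 on the plus strand for E2F3, chr13:113584503-113584802 on the plus strand for TFDP1, and chr16:67191905-67192204 on the plus strand for E2F4. The first 4 were chosen because they hold an octamer, and E2F4 because it fell without one.
E2F1: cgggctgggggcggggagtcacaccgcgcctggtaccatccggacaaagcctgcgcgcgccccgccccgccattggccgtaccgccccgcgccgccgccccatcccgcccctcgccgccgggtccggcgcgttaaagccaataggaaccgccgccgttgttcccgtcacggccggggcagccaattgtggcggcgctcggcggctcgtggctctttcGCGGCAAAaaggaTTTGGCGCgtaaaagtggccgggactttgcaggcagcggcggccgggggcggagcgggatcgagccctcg
E2F2: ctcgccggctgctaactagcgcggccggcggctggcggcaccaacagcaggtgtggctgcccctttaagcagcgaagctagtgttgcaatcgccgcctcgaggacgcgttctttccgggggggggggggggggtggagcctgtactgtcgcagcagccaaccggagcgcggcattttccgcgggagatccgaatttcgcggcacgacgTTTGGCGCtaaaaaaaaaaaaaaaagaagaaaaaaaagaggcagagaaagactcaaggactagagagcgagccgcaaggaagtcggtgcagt
E2F3: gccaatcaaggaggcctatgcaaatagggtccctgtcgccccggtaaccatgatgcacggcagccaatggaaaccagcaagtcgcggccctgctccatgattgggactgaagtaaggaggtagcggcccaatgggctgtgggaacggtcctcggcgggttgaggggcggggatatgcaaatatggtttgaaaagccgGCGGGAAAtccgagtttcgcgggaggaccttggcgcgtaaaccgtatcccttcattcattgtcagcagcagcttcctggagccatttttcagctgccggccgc
TFDP1: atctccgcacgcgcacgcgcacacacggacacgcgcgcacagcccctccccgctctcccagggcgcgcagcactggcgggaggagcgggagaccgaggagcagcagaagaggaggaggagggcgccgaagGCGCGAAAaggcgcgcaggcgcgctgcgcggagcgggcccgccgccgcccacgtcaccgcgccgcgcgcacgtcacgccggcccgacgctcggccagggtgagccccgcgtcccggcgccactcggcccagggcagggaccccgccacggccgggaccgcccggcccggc
E2F4: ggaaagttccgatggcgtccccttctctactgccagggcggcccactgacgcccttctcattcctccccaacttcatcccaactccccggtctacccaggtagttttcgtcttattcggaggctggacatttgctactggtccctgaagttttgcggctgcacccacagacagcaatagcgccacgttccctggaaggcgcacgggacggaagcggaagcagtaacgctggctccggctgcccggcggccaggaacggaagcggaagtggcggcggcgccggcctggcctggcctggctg

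Counted from the start site as position 0, the E2F1 window held octamers at −33 to −26 and at −20 to −13, the first on the opposite strand. The octamer of E2F2 lay at −42 to −35, that of E2F3 at −53 to −46 on the opposite strand, and that of TFDP1 at −120 to −113 on the opposite strand. All 3 activator genes thus had an octamer close before a start. No octamer was found in the windows of E2F4, E2F6, E2F7 and TFDP2. Octamers were therefore present for 4 of 8 matched members (50%), against 3.99% of 27305 genes with a window. By window, 4 of the members' 11 (36.4%) held one, against 3.31% of all 35116 windows. In the S phase list described below, 59.4% of the 32 genes with a window held one. The E-box CACGTG, the site of MYC and MAX, was found for 1 of the 8 members, in a second start window of E2F3, against 8.77% of all genes. The CHR element TTTGAA, through which the MuvB complex binds late cell cycle genes, was found for E2F3 and TFDP2, or 2 of 8, against 18.2% of all genes. These are matches of letters and no evidence of binding in these cells. Of the 4 members with an octamer, E2F2 and TFDP1 fell, and E2F1 and E2F3 gave no call. Among the matched members without one, E2F4 and TFDP2 fell, E2F7 rose and E2F6 gave no call. The octamers thus did not separate the members that fell. Over all genes tested, 27.6% were called lower, and over the 10974 tested genes with a window, 33.1%.

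**Figure D1:**
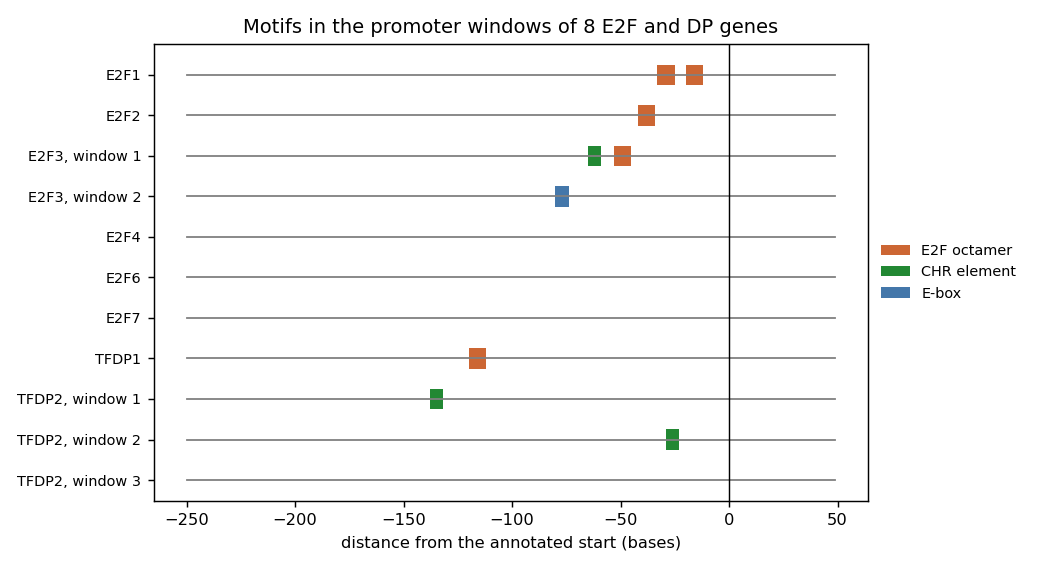
Motif matches in the 11 promoter windows of 8 E2F and DP genes, by distance from the annotated start in bases (horizontal axis). Boxes mark E2F octamers, E-boxes and CHR elements on either strand, and octamers sit before the start in E2F1, E2F2, one E2F3 window and TFDP1 only.

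All 10 genes passed the filter on low counts. Levels were compared between genes as CPM (counts scaled to a common library size, with TMM factors) per kilobase of exon. The exon length joins all annotated exons of a gene, such as 3744 bases for TFDP1 and 11897 for TFDP2. Ranks and shares between genes depend on that choice. By CPM alone, E2F2 (mean 61.0) stood above E2F1 (52.6) under DMSO, and so did TFDP2 (57.1). Under DMSO, E2F4 (64.9 ± 2.69 CPM per kb, SD, n = 2) and TFDP1 (61.9 ± 3.80) stood highest and their ranges overlapped. E2F3 (23.9 ± 2.94), E2F1 (19.5 ± 1.28) and E2F2 (11.2 ± 0.151) followed without overlap. E2F6 (9.23 ± 1.40) and E2F8 (8.17 ± 1.37) overlapped, and TFDP2 (4.80 ± 0.212), E2F7 (3.73 ± 0.720) and E2F5 (2.55 ± 0.00254) were lowest. The main transcripts of the family under DMSO were thus a repressor E2F and its common DP partner.

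Under dBET1 the order changed at several places. TFDP1 (35.4 ± 0.729 CPM per kb) and E2F4 (30.9 ± 0.833) remained first but no longer overlapped, and E2F3 (24.2 ± 0.466) and E2F1 (17.9 ± 0.224) came closer to them. E2F6 had 8.61 ± 0.0403, and E2F7 (5.19 ± 0.237) now overlapped E2F2 (4.97 ± 0.355). E2F8 (3.83 ± 0.101) overlapped TFDP2 (3.66 ± 0.209), and E2F5 was again last.

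**Figure D2:**
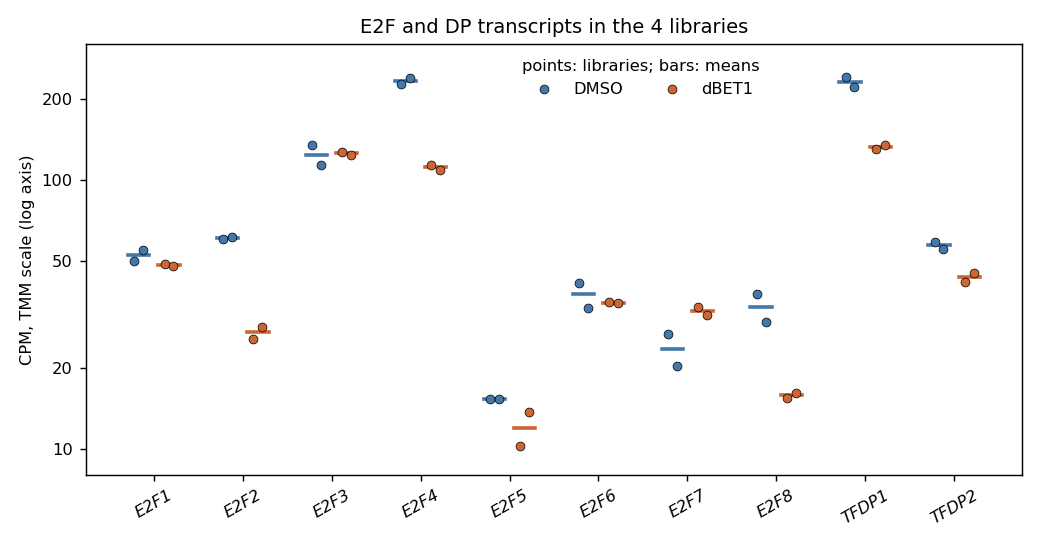
CPM on the TMM scale (vertical log axis) of the 10 E2F and DP transcripts in the 2 DMSO and 2 dBET1 libraries. Points are libraries and bars are group means. Both dBET1 points lie below both DMSO points for E2F1, E2F2, E2F4, E2F5, E2F8, TFDP1 and TFDP2, above them for E2F7, and between them for E2F3 and E2F6. Separate points are no test with 2 libraries a group, and E2F1 and E2F5 had no call. The share of all genes with separate points was not computed.

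The question for each gene was whether its transcript level differed between dBET1 and DMSO. With p-values from edgeR's quasi-likelihood fit, adjusted by the Benjamini-Hochberg method over 17971 genes, and with a call at adjusted p under 0.05, 5 of the 10 genes fell (E2F2, E2F4, E2F8, TFDP1 and TFDP2), 1 rose (E2F7) and 4 had no call (E2F1, E2F3, E2F5 and E2F6). Of all genes tested, 27.6% were called lower and 28% higher. Among the 7908 genes within the members' range of abundance, 42.6% were called lower and 22.1% higher. With a further limit of 1 on the log2 scale, 3 of the 10 were lower (E2F2, E2F4 and E2F8) and 0 higher, against 8.54% and 16.9% of all genes. Past the same limit, 768 of the 7908 genes of like abundance were lower and 385 higher. Scaled by total counts alone, 0 of the 10 were past that limit and lower, the all-gene median went from 0.048 to 0.26, and the share of higher genes among all calls went from 50.4% to 65.2%. The median log2 fold change of the 10 was −0.37, beside 0.048 over all genes tested and −0.18 over the genes of like abundance. The numbers describe the family, and no test compares it with other genes.

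E2F2, one of the activators, fell, as did E2F4 and E2F8 with intervals that overlap its own. Its gene lies at chr1:23506438-23531233 on the minus strand. It had 60.4 and 61.6 CPM under DMSO and 25.8 and 28.5 CPM under dBET1. The DMSO values were nearly equal, and both dBET1 values were far below them. The log2 fold change was −1.17 (SE 0.0961, 95% interval −1.39 to −0.95, edgeR adjusted p = 5.39e-05), or 2.25-fold lower, and 6.51% of tested genes had a lower value.

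E2F1, the activator best known for also driving apoptosis genes, lies at chr20:33675477-33686385 on the minus strand. It had 50.1 and 55.0 CPM under DMSO and 48.6 and 47.7 CPM under dBET1. The groups did not overlap, but their means differed by less than the DMSO libraries did from each other. The log2 fold change of −0.13 (SE 0.0916, 95% interval −0.34 to 0.086) had an edgeR adjusted p of 0.271. A call appeared when DMSO replicate 1 was left out (−0.22, adjusted p = 0.0395), and the sign turned when libraries were scaled by total counts alone (0.084).

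E2F3, the most abundant activator per kilobase, lies at chr6:20401879-20493714 on the plus strand. Its CPM was 135 and 114 under DMSO and 127 and 124 under dBET1, so both dBET1 values sat between the DMSO values. The log2 fold change was 0.015 (SE 0.0969, 95% interval −0.21 to 0.24, edgeR adjusted p = 0.910). The interval leaves room for a small change of either sign, and the sign itself turned under 5 of 11 alternatives. The 3 activators thus gave 1 call among them. Relative to E2F1, the E2F2 level per kb was 0.594 and 0.551 under DMSO and 0.261 and 0.294 under dBET1, a ratio that does not depend on how libraries are scaled.

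E2F4, the repressor with the highest level per kb, lies at chr16:67192155-67198918 on the plus strand. It had 226 and 240 CPM under DMSO and 113 and 109 CPM under dBET1. The replicates of each group lay close together beside the gap between the groups. The log2 fold change was −1.07 (SE 0.0753, 95% interval −1.24 to −0.89, edgeR adjusted p = 2.89e-05), and 8.04% of tested genes had a lower value.

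E2F5, the second partner of RBL1 and RBL2 among the repressors, lies at chr8:85177154-85217158 on the plus strand. Its counts were 500 and 430 under DMSO and 308 and 420 under dBET1, or 15.3 and 15.3 CPM against 10.3 and 13.8 CPM. The dBET1 replicates lay far apart, and the log2 fold change of −0.35 (SE 0.174, 95% interval −0.75 to 0.053) had an edgeR adjusted p of 0.122. E2F5 shares 997 exon bases with RBIS on the opposite strand. RBIS, a ribosome biogenesis factor, had 1322 and 1085 counts under DMSO and 509 and 471 under dBET1 (log2 fold change −1.29, SE 0.111, edgeR adjusted p = 6.66e-05). The strand setting of the counting is not given in the sources used here, so reads of the 2 genes cannot be told apart.

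E2F6 lies at chr2:11444375-11466177 on the minus strand. It had 41.6 and 33.5 CPM under DMSO and 35.2 and 34.9 CPM under dBET1, and the dBET1 values fell inside the DMSO range. Its log2 fold change was −0.10 (SE 0.122, 95% interval −0.38 to 0.18, edgeR adjusted p = 0.509). The lack of a call depended on the DMSO replicates, since leaving out DMSO replicate 2 gave a call (−0.28, adjusted p = 0.0280) and leaving out DMSO replicate 1 gave 0.037 (adjusted p = 0.773). Its 4 processed pseudogene loci in the table held 100, 82, 94 and 101 counts together, 7.37% to 9.47% of the E2F6 counts, and reads could be split between these copies.

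E2F7 and E2F8, the pair that needs no DP partner, moved in opposite directions. E2F7 lies at chr12:77021248-77065569 on the minus strand. It had 26.7 and 20.3 CPM under DMSO and 33.7 and 31.6 CPM under dBET1, so both dBET1 values were above both DMSO values. It rose by 0.47 on the log2 scale (SE 0.145, 95% interval 0.14 to 0.81, edgeR adjusted p = 0.0246). The DMSO replicates differed by 0.40 on that scale. The call ended with no filter on counts (0.42, adjusted p = 0.138), and without DMSO replicate 2 (0.26, adjusted p = 0.0613), dBET1 replicate 1 (0.42, adjusted p = 0.122) or dBET1 replicate 2 (0.51, adjusted p = 0.0593).

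E2F8 lies at chr11:19224063-19241620 on the minus strand. It had 37.8 and 29.8 CPM under DMSO and 15.5 and 16.1 CPM under dBET1, with no overlap. It fell by 1.10 on the log2 scale (SE 0.142, 95% interval −1.42 to −0.77, edgeR adjusted p = 0.00045), or 2.14-fold lower. The ratio of E2F8 to E2F7 per kb was 2.15 and 2.23 under DMSO and 0.701 and 0.776 under dBET1. E2F8 was thus the more abundant of the pair under DMSO and the less abundant under dBET1, in both libraries of each group. An exact permutation test of 2 libraries against 2 cannot give a 2-sided p below 0.333, so none is given for this ratio.

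The DP genes both fell. TFDP1, the main DP partner, lies at chr13:113584721-113641473 on the plus strand. It had 242 and 222 CPM under DMSO and 131 and 134 CPM under dBET1, both dBET1 values below both DMSO values. TFDP1 had a log2 fold change of −0.81 (SE 0.0777, 95% interval −0.99 to −0.63, edgeR adjusted p = 0.000108), or 1.75-fold lower.

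TFDP2, the less abundant partner, lies at chr3:141944428-142149544 on the minus strand. It had 58.9 and 55.3 CPM under DMSO and 41.7 and 45.3 CPM under dBET1. Its log2 fold change was −0.39 (SE 0.0928, 95% interval −0.61 to −0.18, edgeR adjusted p = 0.00833). The call ended with scaling by total counts alone (−0.18, adjusted p = 0.148) and without dBET1 replicate 1 (−0.34, adjusted p = 0.120). TFDP3, a further DP gene, had 0 counts in all 4 libraries, which allows up to 3 counts in each.

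**Figure D3:**
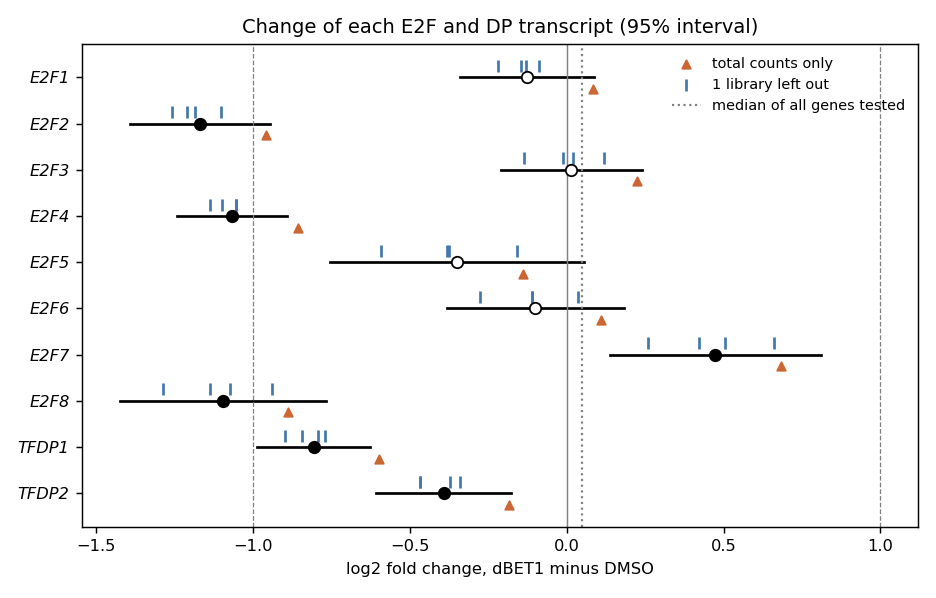
Log2 fold change of dBET1 minus DMSO (horizontal axis) for each E2F and DP transcript, with the 95% interval from edgeR's quasi-likelihood fit. Triangles show scaling by total counts alone, ticks show each library left out, and the dotted line is the median of all genes tested. The intervals of E2F2, E2F4, E2F8, TFDP1 and TFDP2 lie below 0, that of E2F7 lies above 0, and those of E2F1, E2F3, E2F5 and E2F6 cross it.

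The makeup of the family was then summed per library in CPM per kb. All E2F transcripts together gave 145 and 142 under DMSO and 98.3 and 97.0 under dBET1. Their log2 ratio was −0.55, and −0.34 with total counts alone. E2F4 and E2F5 together gave 65.5 and 69.3 against 33.2 and 32.6. The share of E2F4 in all E2F transcripts was 43.5% and 47.2% under DMSO and 32.1% and 31.3% under dBET1. Shares do not depend on the scaling of libraries.

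The 3 activators together gave 55.7 and 53.6 CPM per kb under DMSO and 47.3 and 46.8 under dBET1. Scaled by total counts alone they gave 52.4 and 49.2 against 50.7 and 50.4, so the lower level did not hold under that scaling. Their share of all E2F transcripts was 38.5% and 37.9% under DMSO and 48.1% and 48.3% under dBET1. Activators were thus a larger part of a smaller total.

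The DP genes together gave 69.5 and 63.9 CPM per kb under DMSO and 38.4 and 39.7 under dBET1. Their log2 ratio was −0.77, and −0.56 with total counts alone. The ratio of DP to E2F transcripts was 0.480 and 0.451 under DMSO and 0.390 and 0.409 under dBET1, and the groups did not overlap. Per kb, TFDP1 supplied 92.9% and 92.7% of DP transcripts under DMSO and 90.9% and 90.4% under dBET1. This share and the DP to E2F ratio depend on the exon lengths used. By CPM alone, the DMSO means were 232 for TFDP1 and 57.1 for TFDP2. These sums were not tested, with 2 libraries a group.

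**Figure D4:**
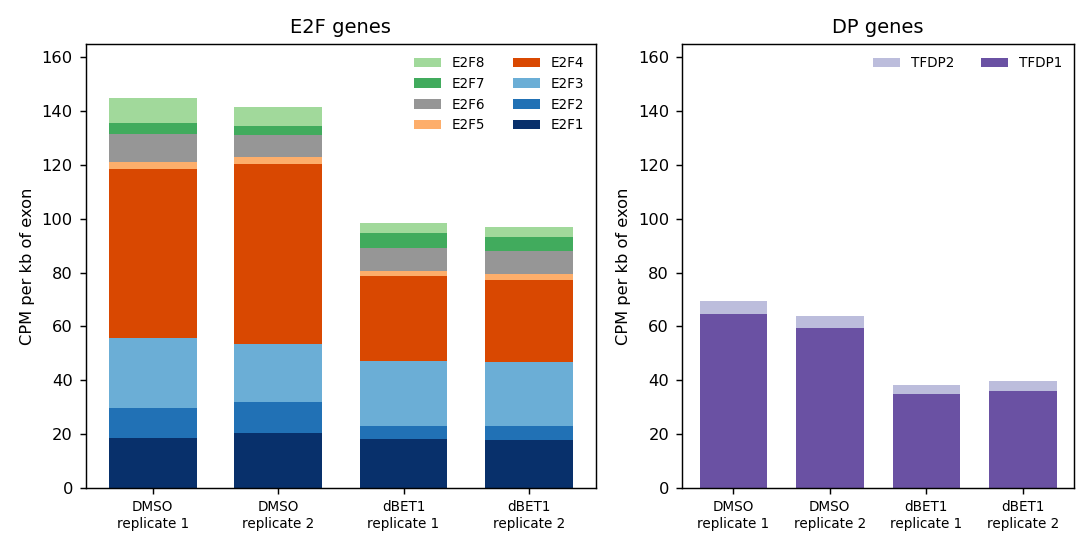
Stacked CPM per kb of exon (vertical axis, from 0) of the 8 E2F transcripts and of the DP transcripts in each of the 4 libraries. The E2F stack is near 145 and 142 under DMSO and near 98.3 and 97.0 under dBET1, and the E2F4 layer shrinks most.

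The pathway around the E2F proteins was described by lists of genes. A range of abundance of its own was computed here only for the S phase and the G2 and M phase lists. Of 20 pocket proteins, G1 cyclins, kinases and inhibitors, 18 were tested, with a median log2 fold change of −0.27. Of these, 9 fell (50%) and 4 rose (22.2%), beside 27.6% lower and 28% higher over all genes tested. In the range of abundance of the E2F and DP genes, 42.6% were called lower and 22.1% higher. CCND1, one of the D cyclins that start RB1 phosphorylation, fell from 118 ± 3.87 to 42.7 ± 2.24 CPM (log2 fold change −1.46). CCND3, named after its values were seen, had the highest CPM of the D cyclins. It fell less, from 353 ± 31.3 to 268 ± 6.19 CPM (−0.40). CDC25A, a phosphatase that activates CDK2, fell by 1.23, and CDK4, the partner of cyclin D, fell by 0.98 on the log2 scale. CDKN1A, the CDK inhibitor p21, had 44 and 41 counts under DMSO and 370 and 420 under dBET1, and rose by a log2 fold change of 3.21 (SE 0.209, edgeR adjusted p = 2.21e-05). CCND2, another cyclin D, rose by 0.47, and RBL2, the pocket protein p130 that E2F4 and E2F5 bind, rose by 0.49. The other pocket proteins, named after their values were seen, were RB1 (0.30, adjusted p = 0.0405) and RBL1 (−0.17, adjusted p = 0.273). Among the other CDK inhibitors, named likewise, CDKN1C fell by 0.86 (edgeR adjusted p = 0.0259), and CDKN1B, CDKN2C and CDKN2D had no call. CDKN2A and CDKN2B had 0 counts in all 4 libraries and were not tested.

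The MuvB core and its partners join E2F4 in the repressive DREAM complex or switch to activation later in the cycle. Of 8 such genes, 4 fell (50%) and 1 rose (12.5%), with a median of −0.24. The shares were 27.6% and 28% over all genes tested, and 42.6% and 22.1% in the range of abundance of the E2F and DP genes. The count of fallen genes was 2 without dBET1 replicate 1, without dBET1 replicate 2 and with total counts alone, and the count of risen genes was 0 without dBET1 replicate 2 and with no count filter. MYBL2, the activating partner in S phase, fell from 299 ± 17.2 to 151 ± 2.77 CPM (log2 fold change −0.99). RBBP4, a histone-binding core subunit, fell by 0.54 and FOXM1, the partner in G2, by 0.31, while LIN37, a core subunit, rose by 0.77. Of 10 PRC1.6 partners of E2F6, 5 fell (50%) and 1 rose (10%), beside 27.6% and 28% of all genes tested (median −0.31). In the range of abundance of the E2F and DP genes, the shares were again 42.6% and 22.1%. E2F6 itself had no call. The count of risen genes was 0 with the DESeq2 test and with no count filter. It was 2 with total counts alone, with at least 10 counts in every library, with a replicate block and with counts divided by 2. It also moved with each library left out in turn, and held only with DESeq2 size factors in edgeR. The called genes with the smallest p were WDR5 (−0.88), a subunit of several chromatin complexes, MAX (−0.77), also the partner of MYC, and PCGF6 (−0.98), the subunit that defines the complex. YAF2 rose by 0.41.

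Of 7 genes for cofactors and turnover of E2F and DP proteins, 3 fell (42.9%) and 3 rose (42.9%), beside 27.6% and 28% of all genes tested (median 0.18). In the range of abundance of the E2F and DP genes, the shares were 42.6% and 22.1%. The count of fallen genes was 1 without dBET1 replicate 2 and with total counts alone. SKP2, a ubiquitin ligase subunit that targets E2F1 and p27, fell by 1.16 on the log2 scale. MCPH1, a DNA damage response protein that binds E2F1, fell by 0.49 and SERTAD2 by 0.37. SERTAD1, which binds DP1 and stimulates E2F activity, rose by 1.49, EAPP, an E2F-associated phosphoprotein, by 0.67 and FZR1, an activator of the anaphase-promoting complex, by 0.31. Protein levels were not measured here, so these values speak of transcripts alone.

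The S phase list holds genes of the G1/S boundary and replication, many of them known E2F targets. Of its 42 genes, 35 fell (83.3%), 1 rose and 6 had no call, with a median of −0.62. Among the 8640 tested genes in the list's range of abundance, 44.9% were called lower. CDC45, a subunit of the replicative helicase, fell by 1.21, PCNA, the sliding clamp, by 1.02 and NASP, a histone chaperone, by 1.00 on the log2 scale. BRIP1, a helicase of DNA repair, rose by 0.62.

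The G2 and M phase list holds mitotic genes that act after replication. Of 54 genes, 53 were tested, 9 fell (17%), 16 rose (30.2%) and 28 had no call, with a median of 0.11. In its range of abundance, 30.2% of 16076 tested genes were called lower and 27.0% higher. That range was wide, from 0.503 to 725 CPM, so these shares are a poor match for abundance. Its low end was set by UBE2C, with 12 and 11 counts under DMSO and 13 and 25 under dBET1. In the narrower range of the S phase list, 14.1 to 521 CPM, 44.9% were called lower and 21.2% higher. CBX5, a heterochromatin protein, rose by 0.73, GTSE1, a microtubule-binding protein, by 0.78 and HMMR, a spindle protein, by 0.64. ANP32E, a histone chaperone, fell by 0.84, CDCA3 by 0.71 and CKS2, a CDK subunit, by 0.68. The count of risen genes was 32 with scaling by total counts alone, 7 with no filter on counts, 25 without DMSO replicate 1, 9 without dBET1 replicate 1, and 9 without dBET1 replicate 2. CCNE2 stands in both the cyclin and the S phase list, with a log2 fold change of −0.05 and no call.

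**Figure D5:**
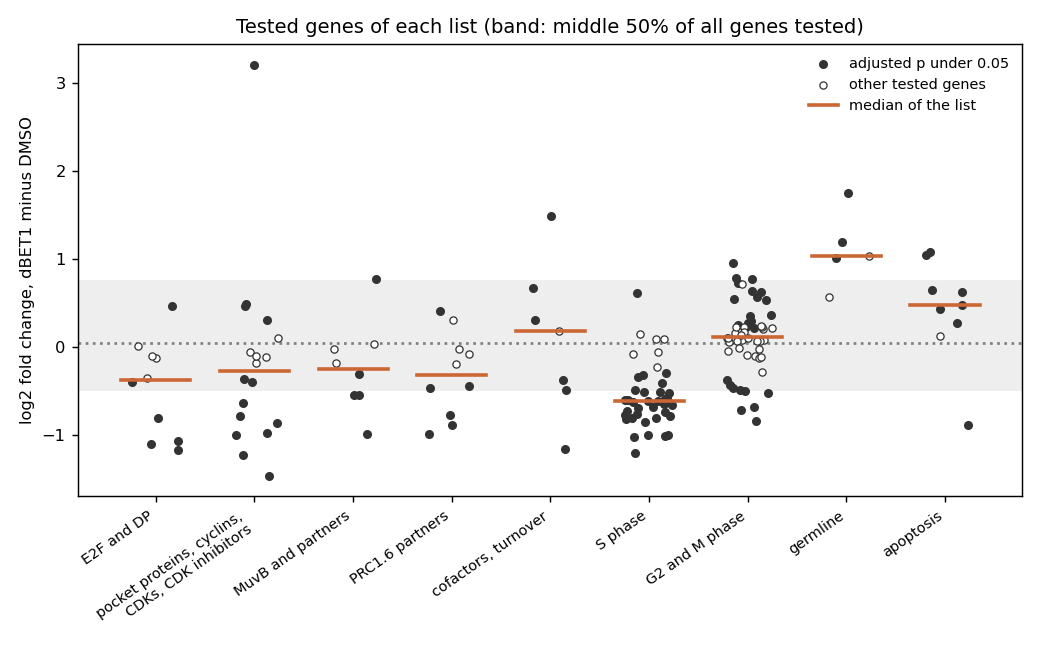
Log2 fold change of dBET1 minus DMSO (vertical axis) for the tested genes of each list. Filled points have an adjusted p under 0.05, open points do not, bars are list medians, and the grey band spans the middle 50% of all genes tested. The S phase median is −0.62, the G2 and M phase median 0.11 and the median of the E2F and DP genes −0.37.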

How the data were processed

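Raw counts per Ensembl gene were deposited by the authors for 4 libraries. Per the study's methods and the submitters' processing notes, reads were aligned to hg38 with HISAT2 2.2.0 and abundances were estimated with StringTie. The step from abundances to counts, its strand setting and its annotation release are not given in the sources used here. The columns named NC were read as the DMSO group, the only control in the labels. Of 64252 IDs, 56105 matched a symbol in the tables used, and IDs without one held 2.57% of counts. No column was left unused.

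Genes were filtered with filterByExpr and scaled with TMM (factors 0.918 to 1.08), and 17971 were tested with edgeR 4.0.16 (quasi-likelihood test, R 4.3.3, common biological coefficient of variation 0.123). A call is an adjusted p under 0.05, and the fold limit is 1 on the log2 scale, as in the study's methods. SE and 95% intervals come from the F statistic. Exon lengths and positions are those of GENCODE (hg38). DESeq2 1.42.0 was an alternative among 11. Replicates differed by more than counting noise (chi-square per degree of freedom 23.6 for DMSO and 8.14 for dBET1). Depth was 28019956 to 34685645 counts.

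The 10 genes and the lists were chosen with earlier results of these data known. In each other list, the text names per direction the 3 called genes of smallest p, and cell type markers were summed. One gene that this rule names is not reported here. Protein sequences were not analysed here.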

Additional observations from a re-analysis of the deposited data

How the results depend on the processing

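E2F2, E2F4, E2F8 and TFDP1 kept their direction and their call under all 11 alternatives, with log2 fold changes of −1.26 to −0.96, −1.14 to −0.86, −1.29 to −0.89 and −0.90 to −0.60. E2F5 had no call under any of them. With the replicate number as a replicate block, 5 of the 10 genes were again lower and 1 higher, and no call of the 10 genes changed. Deviations of libraries with the same number correlated at r = −0.0075, which cannot show whether those libraries were prepared together. The labels give no pairing, and the main fit held no block. The sign turned for E2F1 with total counts alone (0.084), for E2F6 with total counts alone (0.11) and over libraries left out in turn (−0.28 to 0.037), and for E2F3 with the DESeq2 test (−0.021), with DESeq2 size factors in edgeR (−0.00021), with no count filter (−0.040) and over libraries left out in turn (−0.14 to 0.12). The cause was not tested.

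With total counts alone, 952 genes in all were lower past the fold limit in place of 1535, 0 of the 10 members in place of 3, and 3 S phase genes and 32 G2 and M phase genes were higher in place of 1 and 16. With no count filter, 0 members, 0 S phase genes and 7 G2 and M phase genes were higher. With at least 10 counts in every library, 1940 genes were higher past the fold limit in place of 3032. Over libraries left out in turn, where the lone library of a group is assumed to vary like the others, 3356 to 5118 genes in all, 0 to 1 member, 1 to 2 S phase genes and 9 to 25 G2 and M phase genes were higher. In all, 320 values kept their direction and side of the threshold or stayed within their limit, 38 moved, 8 turned sign, 6 lost a call and 2 gained one.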

Other observations

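Germline genes that E2F6 is known to keep silent were mostly too low to test. Of 13, 5 passed the filter on low counts, 3 of these rose (60%, beside 28% of all genes tested) and none had a fold change below 0 in the edgeR fit, with a median log2 fold change of 1.04 among the 5. A gene of this list passes the filter most easily where it is high, so the count is a description. It was 1 without dBET1 replicate 1. STAG3, a meiotic cohesin subunit, had 150 and 135 counts under DMSO and 480 and 477 under dBET1 (log2 fold change 1.75, SE 0.162, edgeR adjusted p = 9.11e-05). MEIOC, a meiotic RNA regulator, had 24 and 19 against 54 and 44 counts (1.19, adjusted p = 0.0213), and SYCE2, a synaptonemal complex protein, 62 and 96 against 185 and 138 (1.01, adjusted p = 0.0311). E2F6 itself had no call.

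Of 10 apoptosis genes with known E2F1 control, 9 were tested, 7 rose (77.8%) and 1 fell (11.1%), beside 28% and 27.6% of all genes tested, with a median of 0.48, while E2F1 itself had no call. APAF1, the apoptosome scaffold, had 577 and 415 counts under DMSO and 1024 and 1004 under dBET1 (log2 fold change 1.04, edgeR adjusted p = 0.000338). BCL2L11, the BH3-only protein BIM, rose by 0.48. MAP3K5, a stress kinase, fell by 0.89, a call that ended without dBET1 replicate 1. The count of risen genes was 4 without dBET1 replicate 1 and 4 without dBET1 replicate 2.

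Over all tested genes with a promoter window, a description made after the values were seen, 701 genes held an E2F octamer. Of these, 40.8% were called lower and 23.0% higher, with a median log2 fold change of −0.15. Among the 10273 genes without one, 32.5% were lower and 28.6% higher, with a median of −0.013. The 1368 genes with an E-box had 41.5% lower and a median of −0.16, and the 9606 without one had 31.9% lower and a median of −0.0070. For the CHR element, 30.9% of 1480 genes were lower (median 0.019), beside 33.4% of the 9494 genes without one (median −0.029). These shares were not matched for abundance. In the S phase list, 19 of 32 genes with a window (59.4%) held an octamer. Of these 19, 15 were lower, with a median of −0.60, and of the 13 without one, 12 were lower, with a median of −0.61. In the G2 and M phase list, 3 of 45 genes (6.67%) held an octamer and 33 of 45 (73.3%) a CHR element.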
